A study of Mus musculus with 39 samples.

Results

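Semaphorins with their plexin and neuropilin receptors, ephrins with their Eph receptors, and Slits with their Robo receptors were followed through the maturation of mouse cerebellar granule cells. The genes were chosen by symbol: Sema3 to Sema7 members, plexins A to D, Nrp1 and Nrp2, EphA and EphB receptors, ephrins A and B, Slit1 to Slit3 and Robo1 to Robo4. The rule found 60 of the 24100 genes in the deposited count table. They were 7 secreted semaphorins (Sema3), 13 membrane semaphorins (Sema4 to Sema7), 2 neuropilins, 9 plexins, 5 ephrin-As, 3 ephrin-Bs, 9 EphA receptors, 5 EphB receptors, 3 Slits and 4 Robos.

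Granule cells are the small excitatory neurons of the cerebellum. They arise from progenitors that divide in the external granule layer after birth, and then migrate inward past Purkinje cells. The data hold RNA-seq of 39 libraries. Of these, 19 came from TRAP (translating ribosome affinity purification), which captures ribosomes through an EGFP tag on protein L10a and so samples RNA under translation. The Math1 line, Tg(Atoh1-Egfp-L10a), gave 4 TRAP libraries from granule cell progenitors isolated at postnatal day 7 (P7). The Neurod1 line, Tg(NeuroD1-Egfp-L10a), gave 5 TRAP libraries at each of P7, P12 and P21 from cerebellar lysates, with 1 input library of the lysate at each age. In both lines the tag is made wherever the transgene's promoter is active, so the RNA is not that of a sorted cell. Granule cells from C57Bl/6J mice at P6 to P7 were sequenced when fresh (0 days in vitro, DIV0), after culture in the solvent DMSO for 2 or 5 days (DIV2, DIV5), and at DIV5 in cultures given UNC1999 at 100 nM, each with 2 libraries. UNC1999 blocks the enzymes EZH1 and EZH2, which place the repressive histone mark H3K27me3. A last set held DIV5 cultures that all carried Atoh1-Cre, 5 of them Ezh1(wt/wt) (wt) and 4 with floxed Ezh1 alleles (cKO, a conditional knockout). The labels do not say whether replicates were separate animals or cultures, so p-values measure only the spread between libraries.

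Semaphorins are extracellular cues that mostly repel or collapse growing axons and steer migrating cells. Plexins are their receptors, and most secreted semaphorins need a neuropilin beside the plexin. Ephrins are bound to the membrane and act on Eph receptor tyrosine kinases of touching cells, with signals into both cells. Slits are secreted and signal through Robo receptors, best known for keeping axons from crossing the midline and for guiding migrating neurons.

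Levels are counts scaled to library size by TMM within each set of libraries (CPM), and per kilobase of exon (CPM per kb) where genes are compared. Log2 fold changes carry the standard error of the fit, and a gene is called where the adjusted p of edgeR's quasi-likelihood test is under 0.05, with Benjamini-Hochberg adjustment over all genes tested. Each library held between 12.1 and 38.5 M counts. Against input, all 9 granule neuron markers were higher in Neurod1 TRAP RNA, and all 8 Purkinje cell, all 10 astrocyte, all 8 microglia and all 12 vascular and meningeal markers were lower. Libraries stood apart by replicate number in 2 groups of samples, a split seen in the data that no label explains. In the Ezh1 cultures, numbers 1 and 2 did not overlap numbers 3 to 5 for 54.2% of 13913 genes that averaged 1 CPM or more, and for 27 of 53 of the guidance genes. In the Math1 TRAP libraries, numbers 1 and 2 did not overlap numbers 3 and 4 for 63.8% of 12548 genes and 27 of 51 guidance genes. Results that rest on these libraries are given below for each set. In bulk RNA, fewer cells of a type and less RNA per cell cannot be told apart.

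Promoters of the 3 genes that rose most under UNC1999, Sema5b, Sema3d and Slit3, are shown because these genes changed most in that direction, and their CG are marked because H3K27me3 is known to be placed at CG-rich promoters. Each run covers 250 bases before to 50 bases after the start that the RefSeq table uses for the gene, in the build GRCm38.p6, 5′ to 3′ on the plus strand, with each CG in capitals (CG reads the same on both strands). Sema3d lies at chr5:12382916-12383215, Sema5b at chr16:35541112-35541411 and Slit3 at chr11:35121206-35121505. For Sema5b and Sema3d that start lies inside the outermost limit of the annotated gene, which begins at 35541154 and 12383161.
Sema3d: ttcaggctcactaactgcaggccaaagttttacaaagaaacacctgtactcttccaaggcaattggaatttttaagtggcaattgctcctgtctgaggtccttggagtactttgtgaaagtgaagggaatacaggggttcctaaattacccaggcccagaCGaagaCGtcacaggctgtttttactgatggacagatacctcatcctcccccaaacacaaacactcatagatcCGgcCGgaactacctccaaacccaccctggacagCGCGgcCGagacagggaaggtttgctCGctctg
Sema5b: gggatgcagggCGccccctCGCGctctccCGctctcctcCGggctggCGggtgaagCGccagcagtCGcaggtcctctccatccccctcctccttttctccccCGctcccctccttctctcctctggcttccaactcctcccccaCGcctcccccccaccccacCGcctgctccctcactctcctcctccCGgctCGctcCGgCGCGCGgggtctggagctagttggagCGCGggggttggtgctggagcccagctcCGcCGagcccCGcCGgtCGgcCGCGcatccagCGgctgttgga
Slit3: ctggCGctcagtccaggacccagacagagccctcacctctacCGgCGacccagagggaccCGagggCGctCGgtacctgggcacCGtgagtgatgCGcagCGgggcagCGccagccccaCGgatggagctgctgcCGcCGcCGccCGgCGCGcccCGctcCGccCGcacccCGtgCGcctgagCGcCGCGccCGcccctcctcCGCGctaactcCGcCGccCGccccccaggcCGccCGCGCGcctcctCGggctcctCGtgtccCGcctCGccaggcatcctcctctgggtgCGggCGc
They hold 8, 27 and 41 CG. At least 8 CG were found in 49% of all 27025 promoters in the table and in 88.7% of the 53 guidance gene promoters it held. At least 27 were found in 15.4% and 32.1%, and at least 41 in 3.35% and 5.66%.

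In the animal, most of these genes fell between P12 and P21. From P7 to P12, 22 of 59 tested were higher and 16 lower (background 68.2% of 14759 genes called, with 31.5% higher and 36.7% lower). From P12 to P21, 9 were higher and 33 lower (background 65.1%, with 32.4% higher and 32.7% lower), with a median log2 fold change of -0.55 against 0.00 over all genes. Both intervals share the P12 libraries. From P7 to P21, 16 were higher and 28 lower (background 81.5%, with 38.9% higher and 42.5% lower), and the groups did not overlap for 13 of the 16 and 25 of the 28 (88.5% of all called genes). With scaling by library size alone, the split was 12 higher and 35 lower from P7 to P21, and 8 higher and 39 lower from P12 to P21. That scaling moved the median of all genes by -0.17 and -0.15, and the higher share of all called genes from P12 to P21 fell from 49.8% to 35.7%. Robo3 was too low to test in TRAP and culture libraries.

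**Figure D1:**
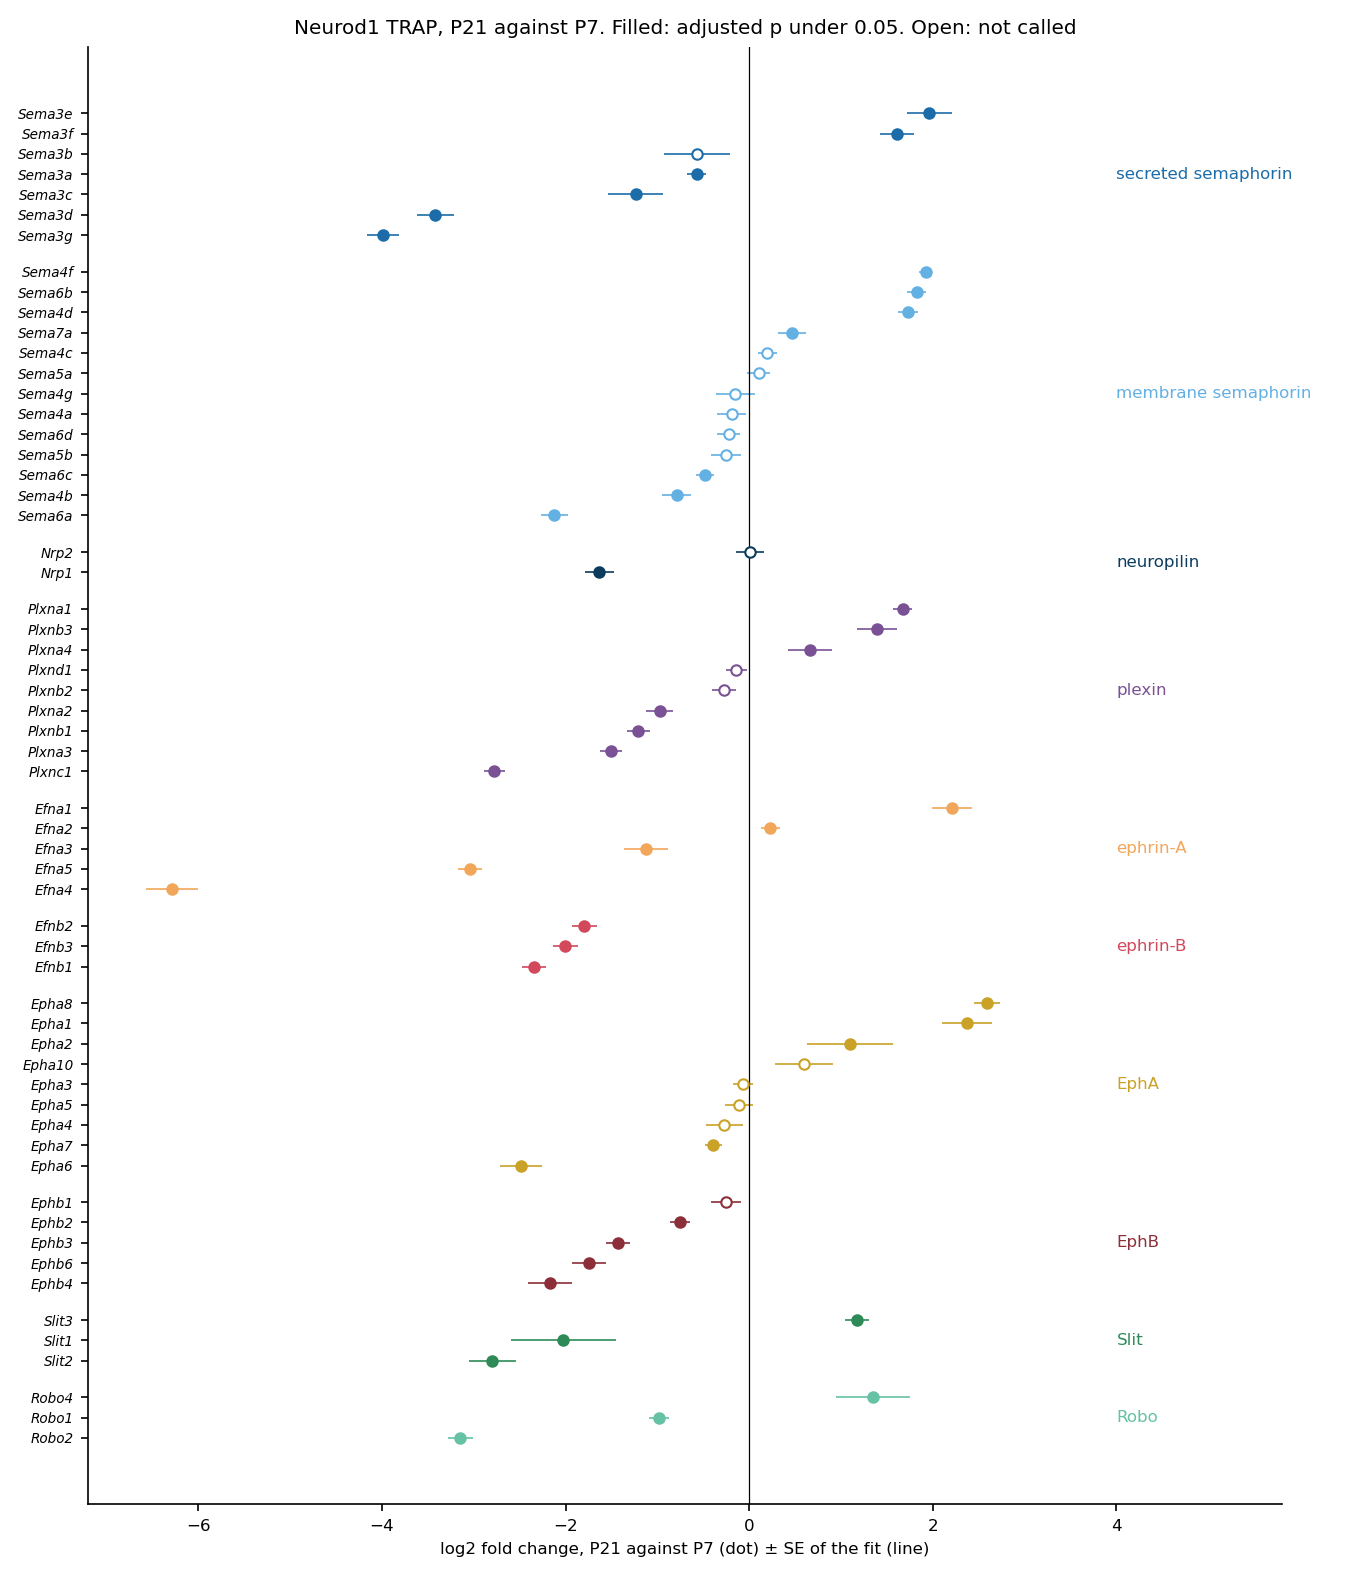
Log2 fold change of the 59 tested genes between P7 and P21 in Neurod1 TRAP RNA (horizontal axis, dot) with the standard error of the fit (line), grouped by family, filled where the adjusted p is under 0.05. All 3 ephrin-Bs lie left of 0, the EphA receptors lie on both sides, and Efna4 is farthest left at -6.28.

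Of the 7 secreted semaphorins, 4 fell and 2 rose from P7 to P21. Sema3g stood at 12.6, 14.1, 12.9, 13.8 and 16.8 CPM in the 5 libraries at P7, 3.15, 3.21, 4.21, 3.85 and 3.30 at P12 and 1.52, 0.669, 0.878, 0.559 and 0.854 at P21 (-3.99 ± 0.18, adjusted p = 3.22e-15). The 3 ages did not overlap, and the fall was even over both intervals (-1.98 and -2.01). Sema3d fell mainly in the second interval, from 6.89–11.1 CPM at P12 to 0.973–1.79 at P21 (-2.71 ± 0.20, adjusted p = 1.14e-10). Sema3a, the classic repellent that binds neuropilin-1, rose and then fell. It went from 11.9, 11.6, 15.6, 13.03 and 13.8 CPM at P7 to 20.4, 21.1, 18.4, 22.8 and 21.5 at P12 (0.66 ± 0.10, adjusted p = 5.09e-06) and 8.08, 9.60, 10.1, 7.61 and 8.89 at P21 (-1.23 ± 0.10, adjusted p = 7.08e-10). No P12 library overlapped either other age. Sema3c showed the same order at lower levels, with means of 0.743, 2.1 and 0.316 CPM. The genes that rose were Sema3e, a ligand that binds plexin-D1 without a neuropilin, which reached its level by P12 (0.498–1.10, 2.54–3.64 and 2.30–3.25 CPM), and Sema3f, the neuropilin-2 ligand, which rose after P12 (1.21–2.24, 1.26–1.87 and 3.70–5.40 CPM). Sema3b read 0.432–1.54 CPM at P7 and 0.265–0.937 at P21 and was not called (-0.57 ± 0.36).

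Of the 13 membrane semaphorins, 4 rose and 3 fell from P7 to P21. Sema6a, a transmembrane ligand of plexin-A2 and plexin-A4 that is needed for granule cells to begin their inward migration, fell from 112, 156, 153, 127 and 179 CPM at P7 to 102, 109, 114, 116 and 112 at P12 and 29.2, 35.04, 28.1, 41.4 and 33.3 at P21. The P21 libraries lay below all others (-2.12 ± 0.15, adjusted p = 1.85e-11), and most of the fall came after P12 (-1.73). Its relative Sema6b rose from 30.6, 41.3, 37.7, 30.3 and 39.95 CPM to 58.4, 77.2, 85.2, 81.99 and 88.5 and 122, 123, 131, 131 and 129.6, with no overlap between ages (1.82 ± 0.10, adjusted p = 3.24e-13). Per kilobase of exon, Sema6a was above Sema6b at P7 (16.6 and 9.07 CPM per kb) and far below it at P21 (3.81 and 32.1), where Sema6b had the highest mean of all 60 genes. Sema7a was above Sema6a at P7 and just below Sema6b at P21 on this scale (21.6 and 29.9 CPM per kb). Sema4f rose at both steps, from 19.7–24.7 CPM over 53.02–59.7 to 82.5–92.9 (1.92 ± 0.07, adjusted p = 9.23e-17). Sema4d, the ligand of plexin-B1, did likewise, from 12.7–21.3 over 32.4–34.7 to 52.02–56.4 CPM (1.73 ± 0.11). Sema7a, a lipid-anchored ligand of plexin-C1 and integrins, was higher at P21 with a wide spread (114, 65.3, 76.1, 113 and 124 CPM against 54.1–88.6 at P7, 0.47 ± 0.16, adjusted p = 0.00982), overlapped P7, and was not called with library size scaling (0.29, adjusted p = 0.0971). Sema4b and Sema6c fell by 0.79 and 0.48 on the log2 scale. Sema4a, Sema4c, Sema4g, Sema5a, Sema5b and Sema6d were not called, with log2 fold changes between -0.25 and 0.20.

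Neuropilins were at low levels throughout the TRAP series. Nrp1, the co-receptor of Sema3a and of VEGF, fell from 3.41, 3.62, 3.95, 3.39 and 3.92 CPM at P7 to 1.32, 1.34, 1.22, 0.746 and 1.27 at P21, without overlap (-1.63 ± 0.16, adjusted p = 4.08e-09). Nrp2 read 4.33–5.43 CPM at P12, against 2.31–3.70 at P7 and 2.48–3.12 at P21, higher at P12 than at either other age (0.69 and -0.68, both called) and between P7 and P21 it did not pass the test (0.010 ± 0.15, adjusted p = 0.952).

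Of the 9 plexins, 3 rose and 4 fell from P7 to P21. Plxna1 rose most, from 26.8, 31.7, 39.7, 25.98 and 37.4 CPM at P7 to 82.6, 91.5, 75.4, 90.6 and 93.03 at P12 and 106, 90.2, 99.3, 114 and 106 at P21 (1.68 ± 0.10, adjusted p = 1.3e-12). P7 lay below both later ages, which overlapped each other. Plxna2, the receptor of Sema6a in granule cells, was highest at P12, where the libraries read 78.2, 79.3, 76.8, 101 and 97.8 CPM against 62.6, 63.1, 77.3, 52.8 and 79.6 at P7 and 36.6, 32.8, 34.8, 36.8 and 29.6 at P21. P7 and P12 overlapped, and P21 lay below both (P21 against P12 -1.35 ± 0.14, adjusted p = 4.87e-08). Plxnc1 fell at each step, from 47–66.02 over 23.9–32.2 to 7.07–9.21 CPM (-2.78 ± 0.12, adjusted p = 1.3e-15). Plxna3 (-1.503) and Plxnb1 (-1.21) also fell. Plxnb2, a receptor known to be needed for the division and migration of granule progenitors, kept a high level, 133, 210.5, 207, 185 and 270 CPM at P7, 131, 168, 175, 178 and 173 at P12 and 159, 146, 174, 188 and 165 at P21, and was not called (-0.27 ± 0.13, adjusted p = 0.0549). With library size scaling it passed (-0.45, adjusted p = 0.00461). Plxnb3 rose from 0.681–1.37 to 1.90–3.36 CPM, Plxna4 was higher at P21 (0.66 ± 0.24, adjusted p = 0.0163, or 0.0737 with library size scaling), and Plxnd1 rose to P12 and returned (0.70 and -0.84).

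The ephrins mostly fell. Efna4 had the largest change of all 59 genes, from 4.27, 6.10, 5.23, 6.85 and 7.22 CPM at P7 over 1.75, 2.17, 2.96, 2.80 and 2.48 at P12 to 0.0777, 0.0669, 0.126, 0.0621 and 0.0295 at P21 (-6.28 ± 0.28, adjusted p = 4.85e-15). The 3 ages did not overlap, and the P21 level was near the limit of counting. Efna5 fell from 12.8–17.3 over 3.51–5.29 to 1.47–2.25 CPM (-3.04 ± 0.13, adjusted p = 2.15e-15), and Efna3 from 1.70–2.98 to 0.766–1.63 CPM (-1.12). Efna1 rose from 0.944–1.73 to 5.13–7.31 CPM (2.21 ± 0.22, adjusted p = 4.82e-09). Efna2 rose slightly (0.23 ± 0.10, adjusted p = 0.0473) and was not called with library size scaling (adjusted p = 0.649).

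All 3 ephrin-Bs fell, mainly after P12. Efnb1 read 22.4, 29.6, 30.6, 26.5 and 33.2 CPM at P7, 18.6, 18.3, 22.3, 22.7 and 22.9 at P12 and 5.36, 5.49, 7.53, 4.79 and 4.83 at P21 (-2.34 ± 0.13, adjusted p = 1.54e-13). Efnb2 read 17.98–25.7 CPM at P7 and 17.99–23.7 at P12 and fell to 4.94–7.46 at P21 (-1.73 ± 0.14, adjusted p = 3.9e-10). Efnb3 fell at both steps, from 32.5–55.8 over 25.8–31.5 to 9.21–13.3 CPM (-2.002 ± 0.14, adjusted p = 8.81e-12). In each of the 3 genes every P21 library was below every earlier one.

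The EphA receptors did not move together, with 3 of 9 higher and 2 lower from P7 to P21. Epha8 rose at both steps, from 10.7, 14.7, 16.1, 8.69 and 15.5 CPM at P7 to 29.5, 33.1, 32.2, 32.6 and 36.3 at P12 and 76.7, 75.1, 71.1, 85.1 and 85.1 at P21, with no overlap between ages (2.59 ± 0.14, adjusted p = 1.91e-13). Epha1 rose at a low level, from 0.142–0.393 to 0.973–1.74 CPM (2.37 ± 0.27). Epha6 fell from 1.49–2.67 to 0.268–0.439 CPM (-2.49 ± 0.23), and Epha7 slightly (-0.39 ± 0.09). Epha2 read only 0.106–0.353 CPM at P7 and 0.157–0.621 at P21, and its call (1.10 ± 0.47, adjusted p = 0.0366) was lost with library size scaling (adjusted p = 0.0774). Epha3, Epha4, Epha5 and Epha10 were not called.

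All 5 EphB receptors fell from P12 to P21, and 4 of the 5 from P7 to P21. Ephb1, which had the highest level per kilobase of all 60 genes at P12 (24.9 CPM per kb), read 107, 114, 129, 93.5 and 139.7 CPM at P7, 165, 176, 172, 183 and 176 at P12 and 88.8, 98.7, 108, 96.9 and 95.6 at P21. The P12 libraries lay above both other ages (0.58 ± 0.16, adjusted p = 0.00377, and -0.84 ± 0.16, adjusted p = 0.000154), while P7 and P21 overlapped and did not pass the test (-0.26 ± 0.16, adjusted p = 0.156). Ephb2, a receptor of ephrin-Bs, fell from 58.4, 79.2, 80.98, 65.4 and 97.8 CPM at P7 to 58.6, 71.3, 62.7, 64.4 and 65.5 at P12 and 52, 39.5, 41.6, 45.4 and 47.7 at P21, where all libraries were below those of both earlier ages (-0.75 ± 0.11, adjusted p = 1.28e-06). Ephb3 read 7.97–11.7 CPM at P7 and 10.3–11.1 at P12 and fell to 3.18–4.51 at P21 (-1.43 ± 0.13). Ephb4 and the kinase-inactive Ephb6 fell at both steps (P7 to P21 -2.17 ± 0.24 and -1.74 ± 0.19).

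Slit levels in TRAP RNA moved apart, and those of Slit1 and Slit2 were low. Slit2 fell from 3.22, 2.77, 3.55, 2.93 and 3.92 CPM at P7 to 1.06, 0.477, 0.877, 1.31 and 0.894 at P12 and 0.272, 0.602, 0.784, 0.404 and 0.265 at P21 (-2.80 ± 0.25, adjusted p = 9.42e-10), with P7 above both later ages. Slit3 rose from 8.36, 7.02, 8.49, 6.81 and 8.60 CPM at P7 to 17.9, 20.1, 18.03, 22.4 and 21.1 at P12 and stayed near that level at P21 (17.4, 16.7, 17.8, 19.5 and 17.2 CPM, P21 against P7 1.17 ± 0.13, adjusted p = 3.46e-08). Slit1 was lower at P21 (0.284–0.628 and 0.0621–0.118 CPM, -2.02 ± 0.57, adjusted p = 0.00275), close to the limit of counting. Robo2, a Slit receptor of migrating neurons and growing axons, had the largest fall after P12 among genes averaging 5 CPM or more. It read 85.7, 104, 115, 89.1 and 118 CPM at P7, 84.1, 88.2, 89.9, 99.99 and 98.7 at P12 and 8.78, 14.4, 14.6, 10.2 and 9.90 at P21, with P7 and P12 overlapping and P21 far below (P21 against P12 -2.99 ± 0.14, adjusted p = 5.25e-14). Robo1 also fell after P12, from 19.9–29.2 and 19.8–23.6 CPM to 10.6–14.96 (-0.84 ± 0.11, adjusted p = 5.08e-07). Robo4, the endothelial member, read 0.0709–0.141 CPM at P7 and 0.186–0.350 at P21 (1.34 ± 0.40, adjusted p = 0.00428), and Robo3 read 0.155–0.368 CPM at P21.

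**Figure D2:**
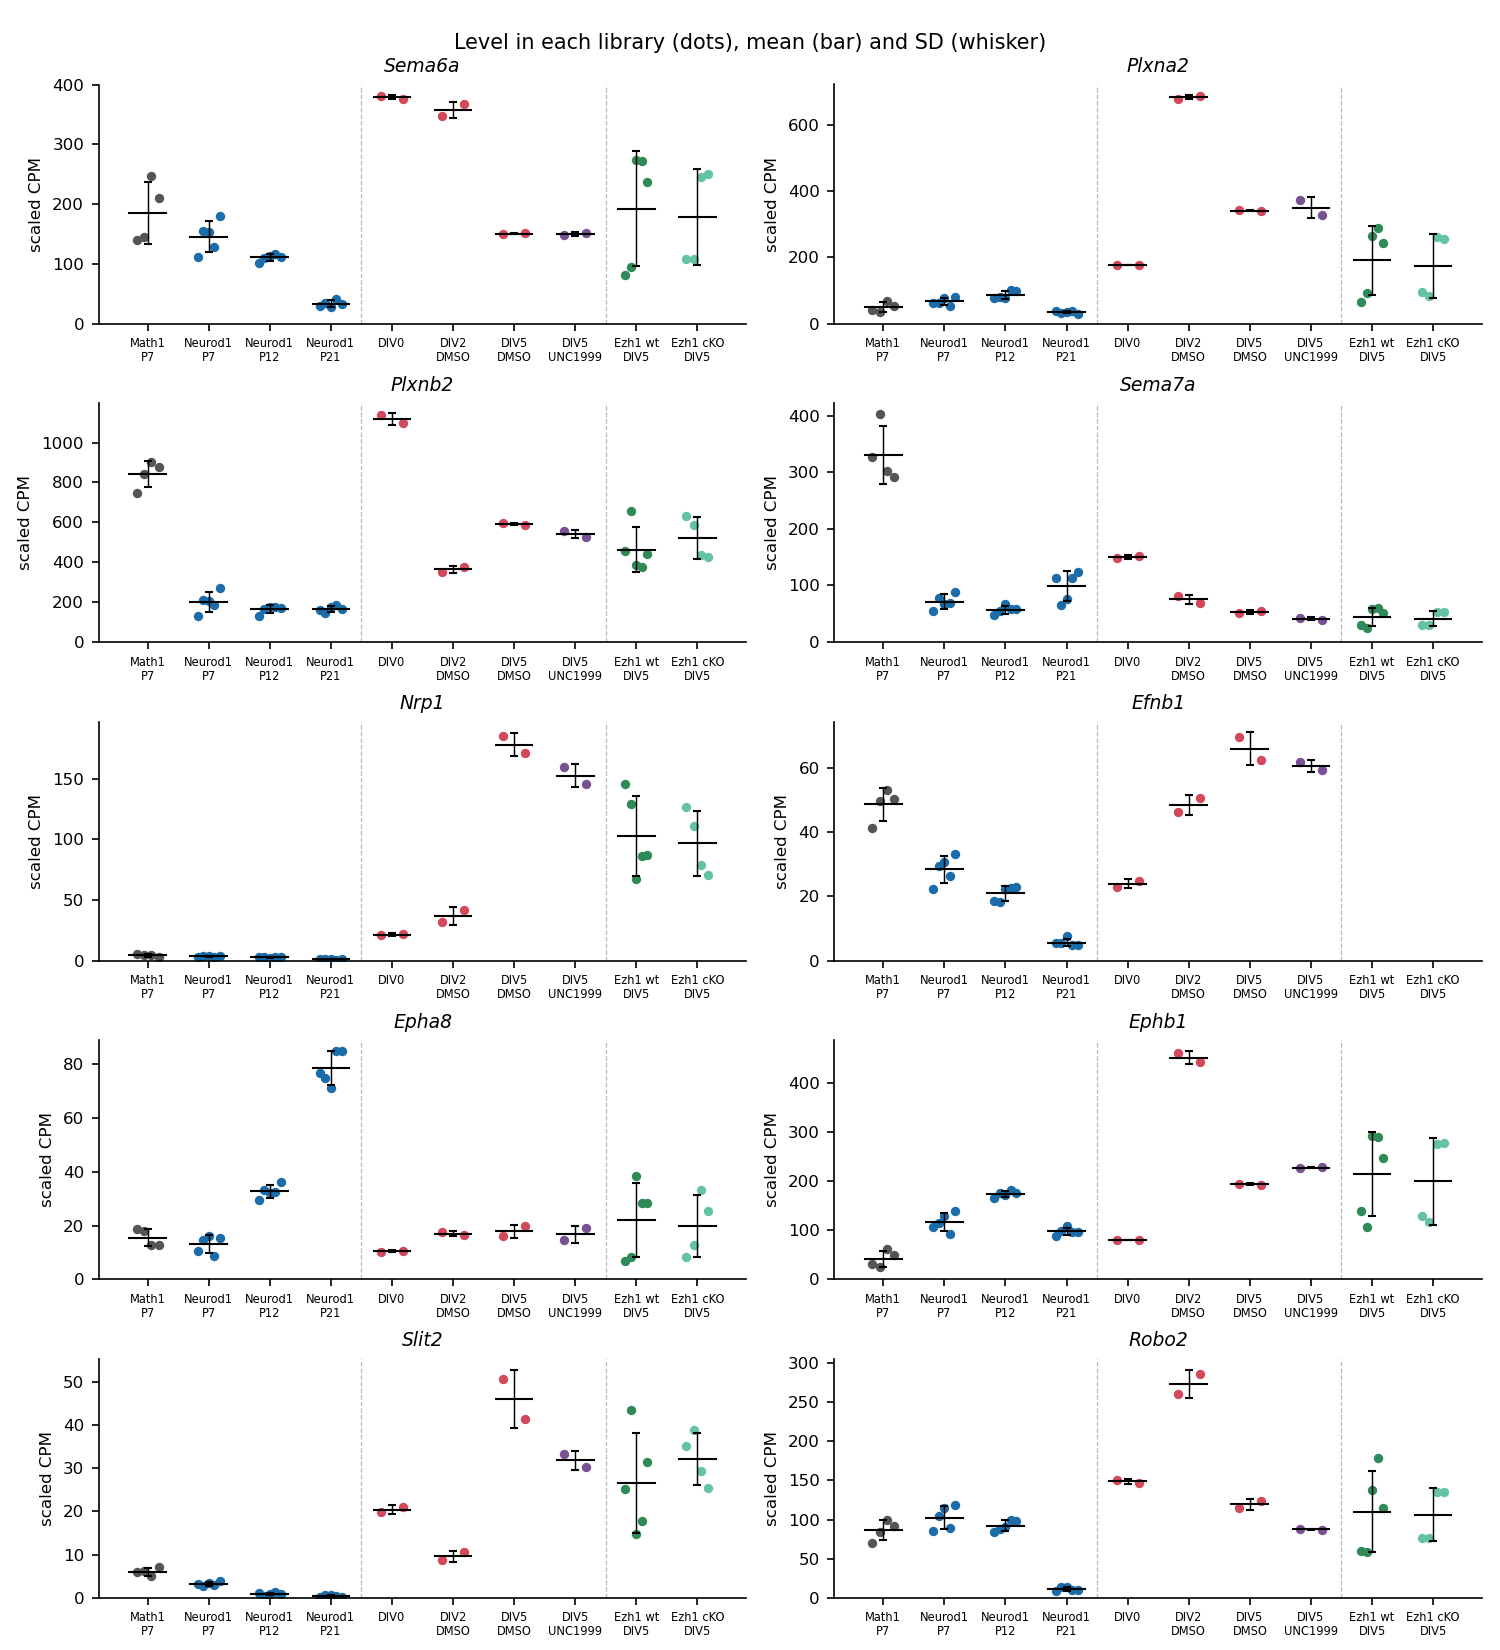
CPM (vertical axes, from 0, 1 panel a gene) of Sema6a, Plxna2, Plxnb2, Sema7a, Nrp1, Efnb1, Epha8, Ephb1, Slit2 and Robo2 in the 10 groups (horizontal axis), with a dot for each library, a bar for the mean and a whisker for the SD; Efnb1 has no value in the Ezh1 cultures. Robo2 is near its P7 level at P12 and far lower at P21, while Epha8 climbs at each age.

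Over the same ages the summed level of 6 granule progenitor markers went from 482–712 CPM at P7 to 67.5–98.02 at P12 and 3.98–5.22 at P21, and that of 8 Purkinje cell markers from 198–283 to 517–621 and 812–963. All 6 progenitor markers were called lower and 7 of the 8 Purkinje cell markers higher from P7 to P21, and no marker of either list was at 0. Sums of 10 oligodendrocyte lineage markers were 297–394, 543–755 and 686–1163 CPM (7 higher and 3 lower from P7 to P21). Those of 8 interneuron markers were 63.5–95.6, 110–140 and 130–164 CPM (5 higher and 0 lower). Their part in the changes of the guidance genes was not tested.

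Genes that act with these families were followed in 3 lists. Of 30 that work with plexins and neuropilins, 16 rose and 12 fell from P7 to P21 (81.5% of all genes were called, 38.9% higher and 42.5% lower), among them Dpysl3 (-5.80 ± 0.12) and Dpysl5 (-3.76 ± 0.08), members of the CRMP family that relays Sema3a signals to the cytoskeleton, and Mical2 (4.38 ± 0.13), an enzyme of the family that oxidises actin below plexins. Of 25 that work with Eph receptors and ephrins, 7 rose and 16 fell, with a median of -0.58 against -0.05 over all genes. They included the guanine nucleotide exchange factors Vav2 (-4.22 ± 0.09) and Tiam1 (3.69 ± 0.09) and Grip1 (-3.70 ± 0.10), an adaptor that binds ephrin-Bs. Of 22 that work with Slits and Robos, 11 rose and 9 fell, among them the actin regulators Enah (-2.74 ± 0.07) and Vasp (-1.57 ± 0.08) and the Robo3 ligand Nell2 (1.45 ± 0.09).

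At P7, the Math1 libraries of isolated progenitors were compared with the Neurod1 libraries of whole lysate. Line and starting material differ together and cannot be told apart. The Neurod1 P7 libraries are the same as in the comparison of ages. In Neurod1 RNA, 19 of 59 genes were higher and 28 lower (background 72.4%, with 36.5% higher and 35.8% lower), with a median of -0.27 against 0.01 over all genes. Membrane semaphorins were mostly lower (8 of 13, with 3 higher), as were the ephrin-As (4 of 5, with none higher). With Math1 numbers 1 and 2 only, the counts were 20 and 25, and with numbers 3 and 4 only they were 14 and 28. Marker sums differed too. The 6 progenitor markers, all called lower in Neurod1 RNA, summed to 2268–3475 CPM in Math1 and 482–712 in Neurod1 libraries. The 8 Purkinje cell markers, 7 called higher, summed to 39.6–59.5 and 198–283, and the 12 vascular and meningeal markers, 9 lower and 2 higher, to 65.4–123 and 40.1–64.1. No marker of these lists was at 0, and their part in the result was not tested. Groups did not overlap for 79.9% of all genes called in this comparison.

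The progenitor libraries were led by a pair of genes. Plxnb2 read 749, 845, 901 and 876 CPM in Math1 RNA against 133, 210.5, 207, 185 and 270 in Neurod1 RNA (-2.07 ± 0.14, adjusted p = 2.29e-11). Sema7a read 327, 403, 302 and 291 against 54.1, 78.1, 67.9, 68.4 and 88.6 CPM (-2.21 ± 0.17, adjusted p = 2.48e-10). Neither overlapped, and per kilobase they stood at 109 and 100.2 CPM per kb in Math1 RNA, with Sema6a next at 21.1. Plxnb1, Ephb6, Ephb4 and Sema4f were lower in Neurod1 RNA too, at 67.8–91.3, 12.6–16.4, 7.17–12.7 and 57.7–68.4 CPM in Math1 and 18.1–28.1, 2.70–6.32, 2.36–4.79 and 19.7–24.7 CPM in Neurod1 libraries. Robo1 was lower in Neurod1 RNA (55.4, 65.9, 65.7 and 62.5 against 19.9, 20.04, 24.6, 23.9 and 29.2 CPM, -1.41 ± 0.11, adjusted p = 2.24e-10). Ephb2 (-0.95 ± 0.11), Efnb1 (-0.77 ± 0.12) and Slit2 (-0.88 ± 0.22) were lower as well, each without overlap.

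Other genes were higher in Neurod1 RNA. Slit3 read 0.419, 1.03, 0.299 and 0.315 CPM in Math1 libraries and 8.36, 7.02, 8.49, 6.81 and 8.60 in Neurod1 libraries (3.75 ± 0.21, adjusted p = 1.26e-12). Sema3a read 3.58, 3.06, 3.41 and 2.52 against 11.9, 11.6, 15.6, 13.03 and 13.8 CPM (2.05 ± 0.12, adjusted p = 4.63e-12), and Ephb1 read 30.7, 24.3, 61.4 and 49.5 against 107, 114, 129, 93.5 and 139.7 CPM (1.51 ± 0.18, adjusted p = 3.32e-07). In all 3 the groups did not overlap. Ephb3, Sema6b, Efnb3 and Sema5a were higher by 1.62, 1.21, 1.21 and 1.18, also without overlap.

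For other genes the Math1 libraries disagreed. Sema6a read 140.2, 145, 246 and 210.2 CPM in Math1 libraries 1 to 4 against 112–179 in Neurod1 libraries, which gave -0.35 ± 0.15 (adjusted p = 0.0429) over all 4 and 0.025 (adjusted p = 0.884) with numbers 1 and 2 only. Plxna2 read 42.1, 35.3, 69.2 and 52.2 CPM, and its difference of 0.44 ± 0.15 became 0.15 (adjusted p = 0.421) with numbers 3 and 4 only. Sema4c, Sema6d, Efna2 and Efna3 were also not called with numbers 1 and 2 only, nor Sema3b, Sema3d, Sema4g, Nrp2 and Slit1 with numbers 3 and 4 only, where Slit1 went from -1.17 to 0.90. Robo2 (0.25 ± 0.13) and Nrp1 (-0.30 ± 0.16) were not called over all 4.

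**Figure D3:**
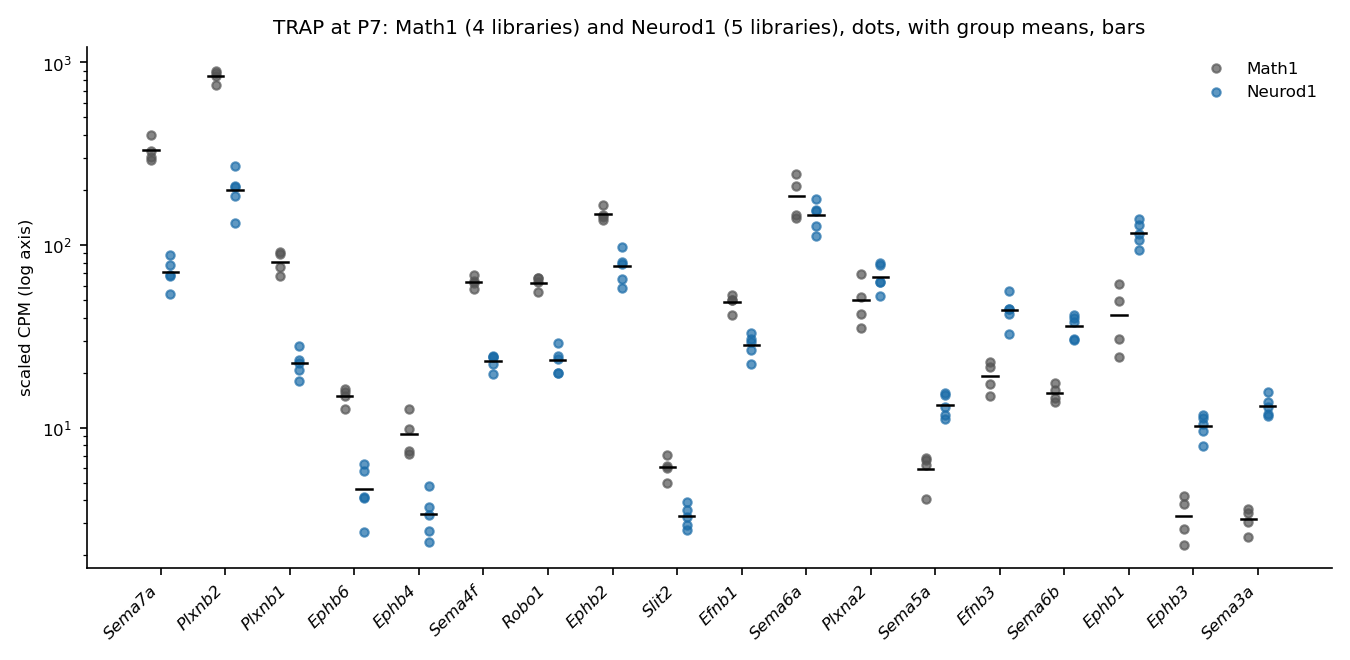
CPM at P7 on a log axis for 18 of the genes, with a dot for each Math1 and Neurod1 TRAP library and a bar for each mean. Plxnb2 and Sema7a are highest in Math1 libraries, and Sema3a and Ephb1 are among the genes higher in Neurod1 libraries.

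Against the input lysate, most of the guidance genes were lower in Neurod1 TRAP RNA. Over the 3 ages, 8 of 59 were higher and 36 lower (background 77.8%, with 36.6% higher and 41.2% lower), with a median of -0.63 against -0.07 over all genes. With library size scaling, 2 were higher and 48 lower, and that scaling moved the median of all genes by -0.40 and the higher share of called genes from 47.1% to 25.6%. Each age had 1 input library, so the difference has no replicate check within an age. Sema4f (0.82 ± 0.09, adjusted p = 7.82e-08) and Sema6b (0.76 ± 0.14, adjusted p = 4.73e-05) were the genes most above input. The TRAP to input ratio of Sema6b was 1.28 at P7, 1.73 at P12 and 2.27 at P21, and that of Sema4f 1.5, 1.71 and 2.16. Of the EphA receptors 8 of 9, and of the plexins 6 of 9, were lower than input and none of either was higher. Plxna4 (-2.03 ± 0.13), Plxnb1 (-1.69 ± 0.14), Sema6d (-1.45 ± 0.09), Nrp1 (-1.51 ± 0.13) and Slit2 (-1.30 ± 0.22) were among the lower ones. The ratio of Plxnc1 was 1.07 at P7 and 0.306 at P21, and that of Sema3d 1.17 and 0.314. Some genes that rose with age were below input at P21, with ratios of 0.213 for Sema3e, 0.201 for Plxna4 and 0.172 for Plxnb3. Plxnb2, Sema6a, Sema7a, Robo1 and Robo2 were not called (0.10, -0.065, -0.069, -0.094 and -0.053). Without the P21 input library, Robo2 read 0.36 (adjusted p = 0.0453).

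In culture the guidance genes went up more often than down. From DIV0 to DIV2, 33 of 59 were higher and 21 lower (background 71.3%, with 36.4% higher and 35.0% lower), and from DIV2 to DIV5, 26 were higher and 22 lower (background 66.7%, with 31.1% higher and 35.7% lower). From DIV0 to DIV5, 33 were higher and 20 lower (background 78.3%, with 40.2% higher and 38.2% lower), with a median of 0.56 against 0.04 over all genes. These comparisons share libraries. With 2 libraries in each group, groups did not overlap for 85.3%, 81.8% and 89.4% of all genes tested from DIV0 to DIV2, DIV2 to DIV5 and DIV0 to DIV5. The number of guidance genes averaging 10 CPM or more went from 41 of 60 at DIV0 to 47 at DIV5. This was not counted over all genes, so it has no background. Marker sums moved at the same time. The 12 vascular and meningeal markers summed to 1179 CPM in both DIV0 libraries, 4427–7253 at DIV2 and 17660–20250 at DIV5. Of these 12, 4 were higher and 7 lower at DIV2 than at DIV0, and 7 higher and 5 lower at DIV5. The 7 were the fibroblast and mural genes Col1a1, Col1a2, Col3a1, Dcn, Lum, Igf2 and Pdgfrb, and the 5 were the endothelial genes Cldn5, Pecam1, Flt1 and Kdr and the pericyte gene Rgs5. From DIV0 to DIV5 the 10 astrocyte markers went from 708–713 to 2214–2217 CPM (8 higher, 2 lower), the 8 microglia markers from 90.3–93.2 to 591–608 (8 higher) and the 6 progenitor markers from 2639–2724 to 204–205 (6 lower). The 9 granule neuron markers summed to 5366–5421 CPM at DIV0, 6898–7064 at DIV2 and 3863–3938 at DIV5. Of these 9, 3 were higher and 6 lower at DIV5 than at DIV0. The part of all these markers in the results was not tested.

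Of the secreted semaphorins 6 of 7, and of the neuropilins 2 of 2, were higher at DIV5 than at DIV0. From DIV2 to DIV5, 4 of the 7 secreted semaphorins rose and 2 fell, while the 2 neuropilins rose. Sema3c went from 2.85 and 2.43 CPM at DIV0 to 122 and 126 at DIV2 and 82.8 and 90.9 at DIV5 (DIV5 against DIV0 5.06 ± 0.11, adjusted p = 2.22e-14). Sema3a went from 7.01 and 8.53 over 23.5 and 36.02 to 48.1 and 48.8 CPM (2.62 ± 0.21, adjusted p = 1.26e-05), and Sema3e from 2.34 and 2.11 over 8.23 and 12.96 to 17.8 and 17.2 (2.98 ± 0.21). Sema3g was the exception, from 12 and 12.3 CPM to 1.18 and 0.727 at DIV2 and 1.17 and 0.618 at DIV5 (-3.82 ± 0.24, adjusted p = 1.41e-09). Nrp1 rose mostly after DIV2, from 20.8 and 22.4 over 31.7 and 42.2 to 185 and 172 CPM (DIV5 against DIV2 2.28 ± 0.12, adjusted p = 3.01e-07). Nrp2 showed the same order, with 18.3 and 21.2, 30.4 and 37.8 and 95.3 and 90.7 CPM.

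Membrane semaphorins fell more often than they rose, 7 against 4 of 13 between DIV0 and DIV5. Sema6a read 381 and 376 CPM at DIV0 and 348 and 367 at DIV2 and then fell to 149.6 and 151 (DIV5 against DIV2 -1.25 ± 0.05, adjusted p = 5.94e-11). Sema7a fell from 148 and 152 over 80.99 and 69.9 to 51.2 and 55.5 CPM (-1.49 ± 0.08), and Sema6b rose from 16.3 and 16.2 to 70.2 and 62.9 and 43.1 and 49.1 (1.51 ± 0.09). Sema5b rose from 12.3 and 14.3 to 44.2 and 43.2 CPM (1.70 ± 0.09), and Sema4d and Sema4g by 0.44 and 0.59. Sema4b, Sema4c, Sema5a, Sema6c and Sema6d fell, with log2 fold changes between -0.92 and -0.36.

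Plexins split evenly, with 4 of 9 higher and 4 lower at DIV5 than at DIV0. Plxna2 had a peak at DIV2, from 178 and 176 CPM at DIV0 to 682 and 689 at DIV2 and 343 and 341 at DIV5 (DIV2 against DIV0 1.95 ± 0.06, adjusted p = 8.67e-13). Plxna1 rose at both steps (44.7 and 44.1, 144 and 172 and 248 and 235 CPM, DIV5 against DIV0 2.44 ± 0.08), as did Plxna4 (2.66 ± 0.14) and Plxnd1 (1.03 ± 0.06). Plxnb2 fell from 1138 and 1096 CPM at DIV0 to 351 and 378 at DIV2 and read 596 and 587 at DIV5 (-0.92 ± 0.05, adjusted p = 4.33e-10). Plxnb1, Plxnb3 and Plxnc1 fell by 1.31, 2.59 and 1.34 on the log2 scale.

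All 3 ephrin-Bs were higher at DIV5 than at DIV0. Efnb1 went from 22.9 and 24.9 over 46.2 and 50.6 to 69.5 and 62.3 CPM (1.46 ± 0.08, adjusted p = 4.27e-10), Efnb2 from 42.8 and 47.97 over 50.3 and 64.7 to 151 and 129 (1.62 ± 0.14), and Efnb3 changed least (0.28 ± 0.08). Among ephrin-As, Efna1, Efna3 and Efna4 rose and Efna2 and Efna5 fell. Efna5 went from 38.7 and 37.4 to 8.68 and 10.3 and back up to 17.7 and 18.4 CPM. Of the 9 EphA receptors 6 rose and 1, Epha6, fell (-2.61 ± 0.33). Epha10 rose from 0.714 and 1.08 to 30.1 and 17.7 and 14.5 and 21.97 CPM (4.31 ± 0.51, adjusted p = 0.000468), Epha5 from 7.66 and 6.92 to 38.7 and 41.7, and Epha4 after DIV2 (10.97 and 10.4, 9.45 and 12.2 and 50.5 and 48.4 CPM).

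Among EphB receptors, Ephb1 had a peak at DIV2. It read 80.9 and 80.1 CPM at DIV0, 462 and 442 at DIV2, where it led all 60 genes per kilobase (64.5 CPM per kb), and 195 and 192 at DIV5 (2.49 ± 0.05 and -1.22 ± 0.05). Ephb2 fell at both steps, from 331 and 325 over 139 and 155 to 82.2 and 83.2 CPM (-1.99 ± 0.06, adjusted p = 6.64e-13). Ephb3 and Ephb4 were higher at DIV5 than at DIV0 (0.89 and 1.54), and Ephb6 was not called (-0.065).

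Slit2 dipped and then rose, with 19.8 and 21.1 CPM at DIV0, 8.73 and 10.6 at DIV2 and 50.7 and 41.3 at DIV5 (DIV5 against DIV2 2.26 ± 0.12, adjusted p = 2.51e-09). Slit3 rose at both steps, from 0.714 and 0.898 over 2.27 and 3.83 to 13.8 and 10.7 CPM (3.88 ± 0.26, adjusted p = 7.51e-09). The 3 Robos tested were all lower at DIV5 than at DIV0. Robo2 rose to DIV2 and fell below its start (151 and 146, 260 and 286 and 115 and 124 CPM), while Robo1 fell and came back (99.1 and 97.6, 29.5 and 35.9 and 84.9 and 75.5 CPM). Robo4 fell from 8.56 and 10.2 CPM to 0.227 and 0.397 and 0.877 and 0.926 (-3.37 ± 0.27).

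Of the genes that act with these families, 17 of 30 for plexins and neuropilins rose and 11 fell from DIV0 to DIV5 (78.3% of all genes were called, 40.2% higher and 38.2% lower). For Eph receptors and ephrins 8 of 25 rose and 16 fell, and for Slits and Robos 9 of 22 rose and 12 fell. For the 9 named above, the log2 fold changes were -0.13 ± 0.06 for Dpysl3 (not called), -0.73 ± 0.05 for Dpysl5 and 2.51 ± 0.16 for Mical2. They were -1.66 ± 0.06 for Vav2, -1.59 ± 0.07 for Tiam1 and -1.43 ± 0.09 for Grip1, and -1.91 ± 0.05 for Enah, 0.25 ± 0.06 for Vasp and 0.80 ± 0.05 for Nell2.

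The change in the animal (P7 to P21) and the change in culture (DIV0 to DIV5) share no library and were set against each other. Of the 59 genes, 10 rose in both and 12 fell in both. Another 14 fell in the animal and rose in culture, and 4 rose in the animal and fell in culture. Of all genes, 81.5% were called in the animal and 78.3% in culture. How many of all genes went the same or opposite ways was not counted, so these counts have no background. The difference of both changes was tested in 1 fit, in which the signed difference, culture minus animal, was called positive for 35 of 60 genes and negative for 15 (background 67.4%, with 38.5% higher and 28.8% lower), with a median of 0.97 against 0.16 over all genes. Robo3, near 0 counts and too low to test in the separate fits, entered this fit and is 1 of the negative calls. With library size scaling the counts were 35 and 9, and the higher share of all called genes went from 57.2% to 67.2%. Without DIV0 library 2, 9 differences were called negative. A positive difference includes 5 genes that fell in both and fell less in culture. The difference was called for all 18 genes that went opposite ways. The TRAP and culture libraries differ in material and method as well as in time, which cannot be told apart.

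Of the 18 genes that went opposite ways 11 were ligands, as were 31 of all 60. Efna4 was -6.28 in the animal and 0.56 in culture, a difference of 6.89 ± 0.39 (adjusted p = 2.46e-12). Sema3c was -1.24 and 5.06, Sema3d -3.42 and 0.80, and Sema3a -0.57 and 2.62. Slit2 was -2.80 and 1.16. All 3 ephrin-Bs fell in the animal and rose in culture, with differences of 3.87 ± 0.23 for Efnb1, 3.48 ± 0.21 for Efnb2 and 2.35 ± 0.23 for Efnb3. Among receptors, Nrp1 was -1.63 and 3.04 (difference 4.74 ± 0.20, adjusted p = 2.14e-14), and Plxna2 -0.98 and 0.95. Genes that fell in both or rose in both included Sema6a (-2.12 and -1.33), Sema3g (-3.99 and -3.82) and Ephb2 (-0.75 and -1.99), which fell, and Plxna1 (1.68 and 2.44), Slit3 (1.17 and 3.88) and Sema6b (1.82 and 1.51), which rose. The sizes differed by the test for Sema6a (0.85 ± 0.20), Ephb2 (-1.17 ± 0.20), Plxna1 (0.83 ± 0.19) and Slit3 (2.77 ± 0.27), and the difference was not called for Sema3g (0.24 ± 0.40) and Sema6b (-0.25 ± 0.20). Robo2 fell in both, by 3.14 in the animal and 0.31 in culture, and these falls differed (2.89 ± 0.22, adjusted p = 2.75e-10).

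**Figure D4:**
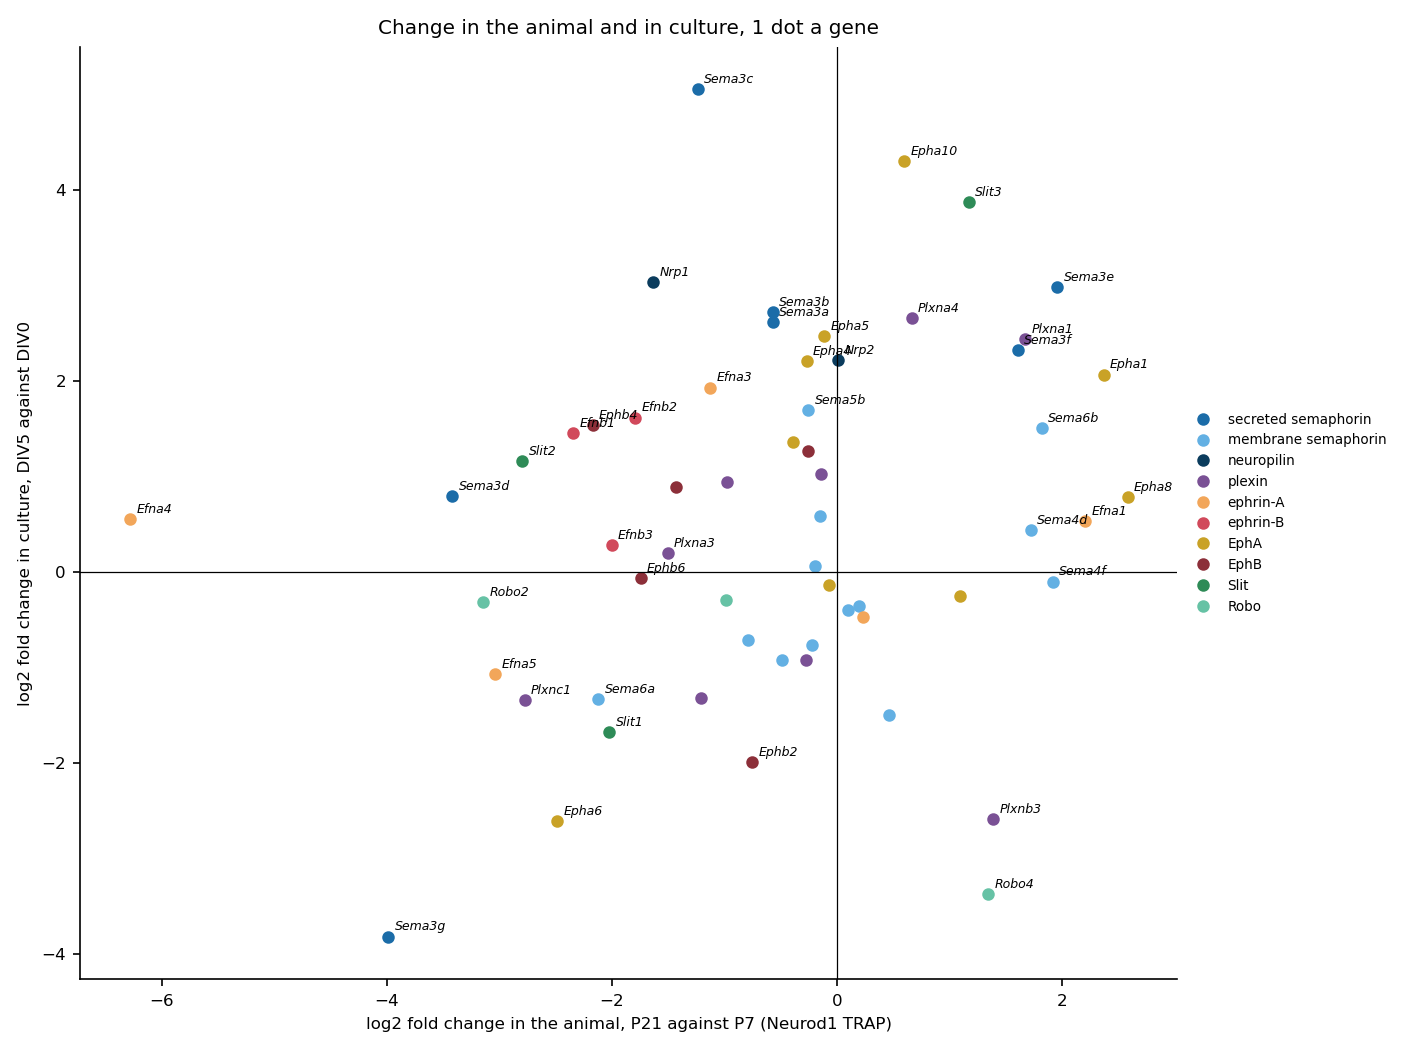
Log2 fold change from P7 to P21 in Neurod1 TRAP RNA (horizontal axis) and from DIV0 to DIV5 in culture (vertical axis), 1 dot for each of 59 genes, coloured by family. The upper left holds the ephrin-Bs, Nrp1, Sema3c, Sema3d, Slit2 and Efna4, lower with age in the animal and higher in culture.

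UNC1999 changed 15 of the 59 genes at DIV5, with 5 higher and 10 lower than DMSO (background 11.9%, with 6.36% higher and 5.53% lower), a median of -0.10 against 0.00 over all genes. Sema5b, a membrane semaphorin with thrombospondin repeats, rose most, from 44.2 and 43.2 to 89.8 and 98.03 CPM (1.11 ± 0.07, adjusted p = 1.04e-06). Sema3d rose from 55.6 and 47.6 to 95.2 and 98.2 CPM (0.91 ± 0.08, adjusted p = 1.63e-05), and Slit3 from 13.8 and 10.7 to 19.4 and 19.8 CPM (0.69 ± 0.15, adjusted p = 0.0101). Smaller rises were called for Ephb2, from 82.2 and 83.2 to 99.3 and 95.8 CPM (0.24 ± 0.06, adjusted p = 0.0194), and Ephb1, from 195 and 192 to 227.4 and 228 CPM (0.23 ± 0.05, adjusted p = 0.00612). None of these 5 genes overlapped between treatments, which held for 100% of the 1899 genes called and so adds nothing to the calls. With 2 libraries a group it also held for 54.9% of all genes tested. The DMSO libraries are those of the culture time course. Without UNC1999 library 2, 3 genes were higher and 5 lower, without DMSO library 2 the lower ones were 6, and with no low-count filter 8 were higher. Over all genes these fits gave 602 higher and 332 lower, 626 lower, and 1279 higher, against 1016 and 883 in the main fit. Of the genes that act with plexins and neuropilins 3 of 30 rose and 1 fell, with Eph receptors and ephrins 3 of 25 rose and 4 fell, and with Slits and Robos 2 of 22 rose and 3 fell.

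The lower genes came from several families. Sema3c fell from 82.8 and 90.9 to 62.4 and 56.8 CPM (-0.55 ± 0.07, adjusted p = 0.00019), and Epha5 from 38.7 and 41.7 to 28.8 and 26.7 CPM (-0.54 ± 0.08, adjusted p = 0.00106). Slit2 fell from 50.7 and 41.3 to 33.4 and 30.3 CPM (-0.53 ± 0.10, adjusted p = 0.00528) and Robo2 from 115 and 124 to 87.7 and 87.02 CPM (-0.45 ± 0.06, adjusted p = 0.000319), while Slit3 was higher and Robo1 was not called. Sema7a fell from 51.2 and 55.5 to 43.01 and 39.1 CPM (-0.38 ± 0.08), and Ephb6 from 19.2 and 19.4 to 16.3 and 14.6 CPM (-0.33 ± 0.10, adjusted p = 0.0409). Sema6d (-0.25), Plxnb1 (-0.25), Sema3b (-0.71) and Robo4 (-1.63, under 1 CPM in each library) were the others. Sema6a, Plxna2, Sema3a, Nrp1, Plxnb2, Efnb1 and Robo1 were not called, with log2 fold changes between -0.22 and 0.036. DESeq2 did not call Sema3b, Plxnb1, Ephb2 and Ephb6. The sum of 9 granule neuron markers was 5110–5125 CPM with UNC1999 and 3863–3938 with DMSO, and that of the vascular and meningeal markers 16200–16770 and 17660–20250. Called higher were 5 of the 9 granule neuron markers, and called lower were 2 of the 12 vascular and meningeal, 6 of 10 astrocyte and 5 of 6 interneuron markers. Their part in the result was not tested.

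With the first promoter listed for each gene, the 5 higher genes had a median of 24 CG (8 to 41) and 9 of the lower genes 30 (2 to 42). The 38 genes not called had 19.5 (2 to 56), against 7 over all genes with a promoter. These are counts of letters in a fixed window, given as a description.

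In the Ezh1 cultures the target read lower in the cKO libraries but was still present. Ezh1 was at 33.2–36.6 CPM (mean 35.07) against 39.4–49.3 in wt (mean 44.31), without overlap. These are counts over the whole gene and all cells of a culture, so they do not measure how far the allele was removed in granule cells. Ezh2 was at a mean of 52.4 CPM in cKO and 52.6 in wt. None of the 54 tested genes was called in the knockout, nor was any other gene, Ezh1 itself included (background 0% of 14461 genes). At an unadjusted p under 0.05 edgeR's quasi-likelihood test listed 2 of the 54, and 169 of all genes, and DESeq2 called none of the 54 and 1 gene in all. Robo1 read 39, 53.6, 40.7, 39.9 and 38.3 CPM in the 5 wt and 64.5, 62.5, 48.9 and 51.6 in the 4 cKO libraries (0.43 ± 0.14, unadjusted p = 0.0116, adjusted p = 1 by edgeR), and 1 wt library overlapped the cKO range. Sema3d read 35.5, 61.3, 80.6, 49.5 and 48.3 CPM in wt and 82.98, 87.7, 91.1 and 78.5 in cKO libraries (0.63 ± 0.21, unadjusted p = 0.0144, adjusted p = 1 by edgeR), again with 1 wt library inside the cKO range. Same-numbered wt and cKO libraries deviated together, but cKO libraries 1 and 4 did so more with a wt library of another number. A pairing by number is thus not established. In each of the 4 same-numbered pairs Robo1 and Sema3d were higher in cKO. Both genes were picked by their p in these same libraries, so their direction in the pairs adds no separate support. With the replicate number as a block they read 0.40 (unadjusted p = 0.00415, adjusted p = 0.493 by edgeR) and 0.64 (unadjusted p = 0.00249, adjusted p = 0.493). Of 53 guidance genes averaging 1 CPM or more, 10 (18.9%) were higher in cKO in all 4 pairs and none lower in all 4, against 9.95% and 10.4% of 13934 genes. No gene of the 54 was called within numbers 1 and 2 or within numbers 3 to 5, nor with the replicate number as a block.

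In these cultures 27 of 53 guidance genes did not overlap between numbers 1 and 2 and numbers 3 to 5, against 54.2% of all genes. Robo2 read 59.5, 58.2, 138, 179 and 115 CPM in wt libraries 1 to 5 and 76.5, 76.6, 135 and 136 in cKO libraries 1 to 4. Sema6a read 81.1, 94.96, 274, 273 and 238 and 107, 109, 245 and 250.5 CPM, and Plxna2 66.04, 92.3, 266, 288 and 243 and 95.5, 82.6, 262 and 255, in the same orders. In each of these 3 genes, numbers 1 and 2 of both genotypes lay below all others. Nrp1 went the other way, at 146, 129.5, 67.1, 86.1 and 87.4 CPM in wt and 127, 111, 78.5 and 70.3 in cKO libraries. Of the 27 genes, 20 were lower and 7 higher in numbers 1 and 2. Over all 9 libraries the sum of 10 astrocyte markers ran from 2967 to 13750 CPM, and its part in this spread was not tested. Plxna3, Plxnb3 and Efnb1 had blank values in these libraries and were not analysed there.

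UNC1999 and the knockout were then compared by the difference of their effects, which was called for none of 56 genes (background 0% of 15453). At an unadjusted p under 0.05, 3 of the 56 and 247 of all genes were listed by edgeR, and DESeq2 called none of the 56. Sema5b was 1.11 ± 0.07 with UNC1999 and 0.32 ± 0.18 in the knockout, a difference of 0.79 ± 0.30 (adjusted p = 1 by edgeR's quasi-likelihood test). Slit3 was 0.69 ± 0.15 and -0.21 ± 0.20, and Robo1 -0.11 ± 0.08 and 0.43 ± 0.14. Sema3d was higher with UNC1999 (0.91 ± 0.08) and stood at 0.63 ± 0.21 in the knockout. A p that misses the threshold does not show that both act alike.

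**Figure D5:**
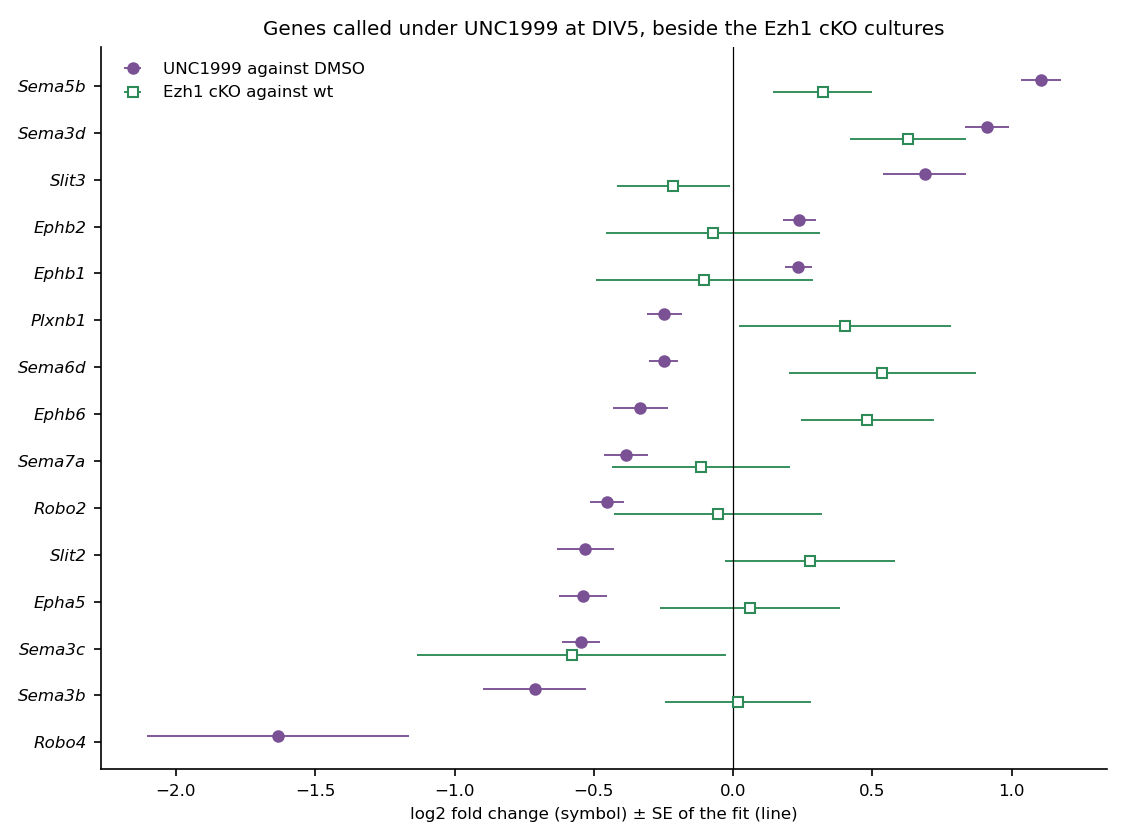
Log2 fold change (horizontal axis) with the standard error of the fit (line) for the 15 genes called under UNC1999 at DIV5, beside the same genes in the Ezh1 cKO, where Robo4 has no value. Sema5b, Sema3d and Slit3 lie farthest right under UNC1999, and no gene is called in the cKO.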

How the data were processed

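RNA-seq of 39 libraries was analysed. The values are estimated counts per gene, deposited by the authors in 1 table. Salmon 0.8.2 and the build mm10 are named in the submitters' processing notes, with no role stated, and the annotation is not given in the sources used here. The estimated counts were rounded to whole numbers. All 60 genes, and the pathway and marker lists, were chosen with earlier results of these data known. Of 24100 gene IDs, 24045 matched a symbol. In the Ezh1 libraries 1041 genes were blank, 3 of the 60 among them, and were left out there.

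Genes were kept by filterByExpr (minimum count 10, minimum total 15). Libraries were scaled by TMM and tested with edgeR 4.0.16 (quasi-likelihood, robust) in R 4.3.3 with limma 3.58.1. P-values were adjusted by Benjamini-Hochberg over all genes in each of 12 comparisons, with calls at an adjusted p under 0.05. TRAP, culture and Ezh1 libraries were scaled separately, and the inputs were scaled together with the Neurod1 TRAP libraries. Levels are compared only within each of these sets. The difference between the animal and culture changes, and between UNC1999 and knockout effects, came from joint fits. Library sizes ran from 12.1 to 38.5 M counts, which limits precision for genes near 0. The test code was checked on simulated counts. No replicate pair held identical counts. Chi-square of counts per degree of freedom was lowest for the DIV0 pair, at 1.43, and next lowest for Math1 libraries 3 and 4, at 4.11. This does not show whether the 2 DIV0 libraries came from separate samples, and their spread may be that of sequencing alone.

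Values in each library were given, in each family, for up to 2 genes of highest mean in the Neurod1 libraries and up to 2 further genes of smallest adjusted p between P7 and P21. In other comparisons they were given for up to 6 called genes in each direction by size, with a mean of at least 5 CPM, and for a set of genes known in granule cells. Other genes were named with ranges or fold changes, and up to 3 genes of each pathway list by adjusted p between P7 and P21.

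Same-numbered wt and cKO libraries of the Ezh1 cultures deviated together (r = 0.861, 0.9, 0.855 and 0.821). Only cKO libraries 2 and 3 did so most with the wt library of their own number. Libraries 1 and 4 deviated more closely with a wt library of another number. The data therefore do not show that the numbers pair the samples. Alternatives were scaling by library size alone, DESeq2 1.42.0, no low-count filter, a replicate block, and leaving out each library. The splits by replicate number, a crossed pairing and the counts over same-numbered Ezh1 pairs were added after seeing the data.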

Additional observations from a re-analysis of the deposited data

Results flagged for a closer look

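Genes picked for values in each library were checked for 1 stray library in the groups of 4 or more libraries of their comparisons. In 141 such sets of a gene and a group, 10 were found, where chance gives about 1 in 20. The other genes and groups were not checked. Library 1 at P12 was lowest for 3 plexins: Plxnb1 at 10.06 CPM with the nearest library at 14.91, Plxnb2 at 130.7 with the nearest at 167.8, and Plxnc1 at 23.89 with the nearest at 29.82. Sema4d was lowest at P12 in library 3 at 32.4 CPM, with the nearest at 34.15. At P21, Efnb1 was highest in library 3 at 7.53 CPM (nearest 5.488), Nrp1 lowest in library 4 at 0.7457 (nearest 1.224) and Nrp2 lowest in library 2 at 2.476 (nearest 2.993). At P7, Epha6 was highest in library 1 at 2.673 CPM (nearest 1.83) and Sema3f in library 5 at 2.237 (nearest 1.377). Robo1 was highest in Ezh1 wt library 2 at 53.65 CPM (nearest 40.66), the library that overlapped the knockout range.

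For 18 genes the change from DIV0 to DIV5 in culture and from P7 to P21 in the animal had opposite signs, both called, and the difference of changes was called by edgeR's quasi-likelihood test. How often this held over all genes was not counted. The difference, culture minus animal on the log2 scale, was positive for 14. It was 6.89 for Efna4, 6.35 for Sema3c, 4.74 for Nrp1, 4.28 for Sema3d, 4.02 for Slit2, 3.87 for Efnb1 and 3.77 for Ephb4. It was 3.48 for Efnb2, 3.26 for Sema3a, 3.14 for Efna3, 2.38 for Ephb3, 2.35 for Efnb3, 1.99 for Plxna2 and 1.81 for Epha7. It was negative for Robo4 (-4.65), Plxnb3 (-3.93), Sema7a (-1.89) and Efna2 (-0.62). Robo4 and Plxnb3 were at low levels in TRAP RNA.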

How the results depend on the processing

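Of the values of the genes given in every library, recomputed under the alternatives, 3135 kept their direction and their side of the threshold, 83 were no longer called, 23 became called and 3 changed sign. The 3 were Sema6a between Neurod1 and Math1 (0.025 with Math1 numbers 1 and 2 only), Ephb2 against input (-0.33, adjusted p = 0.0149 by edgeR, with library size scaling) and Robo2 against input (-0.053, or -0.30 to 0.36 when each library was left out, with adjusted p = 0.0453 without the P21 input library). Over every gene of the set and every alternative, 242 calls were lost and 134 gained, and 8 of these also had the other sign. Beside the 3 named, they were Slit1 between Neurod1 and Math1 (0.90 with Math1 numbers 3 and 4 only) and, against input, Sema4c (-0.11), Epha3 (-0.32) and Ephb3 (-0.26) with library size scaling and Efnb3 (0.13) without the P21 input library. Genes higher than input went from 8 to 2 with library size scaling. Under UNC1999 the higher genes went from 5 to 8 with no low-count filter and ran from 3 to 6 when each library was left out, with 3 without UNC1999 library 2. The lower genes ran from 5 to 8, with 5 without UNC1999 library 2 and 6 without DMSO library 2. Over all genes UNC1999 gave 1016 higher and 883 lower by edgeR and 471 and 416 by DESeq2. With no low-count filter edgeR gave 1279 and 1100 over all genes. Without UNC1999 library 2 it gave 602 and 332, and without DMSO library 2 it gave 670 and 626. Genes with a negative difference, culture minus animal, went from 15 to 9 with library size scaling, and ran from 9 to 16 when each library was left out, with 9 without DIV0 library 2. The cause of these shifts was not tested. For DIV5 against DIV2, library size scaling gave 27 higher and 20 lower genes of the set, moved the median of all genes by 0.142 and moved the higher share of called genes from 46.6% to 57.4%. For DIV5 against DIV0 it moved the median by 0.113. The replicate block left all 54 genes uncalled in the Ezh1 cultures, and 1430 of all genes were then under an unadjusted p of 0.05. TRAP and culture numbers only share a number: with the replicate block the counts were 16 higher and 29 lower from P7 to P21, and 5 and 9 under UNC1999, where Ephb6 lost its call. A crossed pairing of the DIV2 libraries (r = -0.206 as numbered) gave 26 higher and 24 lower genes of the set between DIV2 and DIV5. Library depth limits what can be said of Robo3, Robo4, Slit1, Epha2 and Efna4 near 0 counts. The culture results are limited by 2 libraries a group and by a DIV0 pair closer to each other than any other replicate pair.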
